A study of Mus musculus with 6 samples.

Results

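The MS4A genes encode small membrane proteins of macrophages and other blood cells, and 6 of them, Ms4a4a, Ms4a4c, Ms4a6b, Ms4a6c, Ms4a6d and Ms4a7, were followed here among the 16108 genes of the deposited table. The members were taken by symbol. They had been listed with their acoustics-on and acoustics-off values known, so every difference between the groups given for them is a description and carries no p-value. All 6 passed the filter on low values, an FPKM (fragments per kilobase of transcript scaled to the fragments of the library) of at least 0.5 in at least 3 libraries, which 11664 genes passed. RNA-seq had been performed on RAW264.7 cells, a macrophage-like mouse cell line that served as the only model, in 3 libraries per group. In both groups cells were seeded on the acoustic device, left overnight to attach and then grown for 48 h. The acoustics-off group (here also the off group) got no drive, and the acoustics-on group (the on group) was driven at 5 kHz with 18 V from peak to peak. The design text also names cells in a petri dish, which are not analysed here.

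MS4A proteins are tetraspan membrane proteins with both ends inside the cell, and several act beside another receptor whose signal or trafficking they alter. The family's best known members are CD20 on B cells and the beta chain of the high-affinity IgE receptor on mast cells. In macrophages MS4A4A associates with dectin-1, a receptor for fungal glucans, and in humans the locus that holds MS4A4A and MS4A6A is linked to the amount of soluble TREM2. Mouse Ms4a7 is often used as a marker of macrophages at the borders of the brain, and mouse Ms4a6d has been tied to control of the NLRP3 inflammasome. The comparison between the groups addresses how the drive influences cell behaviour.

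The cells were checked against markers of macrophages and of other cell types. All 10 macrophage markers, among them Csf1r, Adgre1 and Cd68, passed the filter, with summed levels of 28749 to 30991 FPKM in the off libraries and 20389 to 27411 FPKM in the on libraries, most of it from Lyz2 (23951 to 26096 and 16356 to 23205 FPKM). In limma 0 of the 10 passed the threshold and 3 had an unadjusted p under 0.05, against 2.07% and 19.7% of all tested genes. Of the 10, 6 were lower in every on library than in any off library, against 17.7% of all tested genes. Csf1r, the receptor gene for the macrophage growth factor M-CSF, averaged 809.3 ± 45.9 FPKM in the off group and 457.4 ± 109.4 in the on group, and it was the 1 marker that passed in the authors' deposited table. The part of these marker levels in the MS4A values was not tested. Of 5 B cell markers, Cd79a and Cd79b had rows and summed to at most 0.215 FPKM, and of 6 mast cell and basophil markers Kit had a row, at most 0.151 FPKM. Of 6 T cell markers Lck had a row, at 2.202 to 3.53 FPKM. Of 6 granulocyte markers S100a8 and Prtn3 had rows, and they summed to 0.614 to 0.801 FPKM in the off libraries and to 1.99, 7.69 and 6.81 FPKM in acoustics-on replicates 1, 2 and 3. Their part in the MS4A values was not tested. Epithelial and fibroblast markers summed to at most 0.119 and 1.86 FPKM. The other markers of these lists are not analysed here. The log2 levels of the on libraries against the acoustics-off mean had rank correlations of -0.55, -0.44 and 0.03 with transcript length across protein-coding genes in replicates 1, 2 and 3. Each off library against the mean of the other off libraries gave 0.23, -0.31 and 0.05. In limma's library weights acoustics-on replicate 1 had the lowest weight, 0.091, and the acoustics-off libraries had 2.14 to 3.28. Genes are not independent replicates. The members' log2 differences are given below with and without acoustics-on replicates 1 and 2. The labels do not say whether libraries came from separate cultures, so the spread behind the p-values may be that of technical repeats.

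The 6 members lie together on chromosome 19, between 11321039 and 11604849 (GRCm38, GENCODE M21), in a cluster of 19 annotated Ms4a genes. Ms4a7 (11321039 to 11336146) and Ms4a6d (11586604 to 11604849) are on the minus strand at the ends of this stretch. Ms4a4a (11375523 to 11392790), Ms4a4c (11404770 to 11427246), Ms4a6c (11469366 to 11482192) and Ms4a6b (11516512 to 11531256) are on the plus strand between them. Ms4a6b and Ms4a6c are close copies, 34.3 kb apart, whose coding sequences were 85.05% identical over aligned bases and 73.7% with gaps counted. Over aligned bases Ms4a6d was 80.6% identical to Ms4a6b and 76.97% to Ms4a6c (79.4% and 66.8% with gaps counted). Ms4a4a and Ms4a4c were 65.7% identical over aligned bases (58.0% with gaps counted). The other pairs of members were 51.5% to 59.2% identical over aligned bases.

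Promoters of the 4 plus-strand members are shown because 3 of these genes had the lower levels in the on group and Ms4a4c did not. Each is the RefSeq window of 250 bases before to 50 bases after the annotated start, on GRCm38.p6, plus strand, written 5′ to 3′. The windows are chr19:11469118-11469417 for Ms4a6c, chr19:11518309-11518608 for Ms4a6b, chr19:11375238-11375537 for Ms4a4a and chr19:11407411-11407710 for Ms4a4c. For Ms4a4c and Ms4a6b the RefSeq start lies inside the GENCODE gene span given above. Their windows therefore do not cover the start of that span. Capitals mark matches to 7 short motifs described after them.
Ms4a6c: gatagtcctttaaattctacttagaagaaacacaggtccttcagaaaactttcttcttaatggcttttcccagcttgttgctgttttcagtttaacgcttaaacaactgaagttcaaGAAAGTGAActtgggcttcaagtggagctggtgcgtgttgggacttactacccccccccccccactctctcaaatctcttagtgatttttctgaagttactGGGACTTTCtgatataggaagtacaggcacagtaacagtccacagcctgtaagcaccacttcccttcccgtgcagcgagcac
Ms4a6b: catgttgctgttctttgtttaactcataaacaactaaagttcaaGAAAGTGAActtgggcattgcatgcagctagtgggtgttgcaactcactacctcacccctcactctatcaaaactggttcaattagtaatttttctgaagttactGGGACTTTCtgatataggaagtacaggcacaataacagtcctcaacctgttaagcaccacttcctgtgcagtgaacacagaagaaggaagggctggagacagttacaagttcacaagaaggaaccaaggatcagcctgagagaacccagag
Ms4a4a: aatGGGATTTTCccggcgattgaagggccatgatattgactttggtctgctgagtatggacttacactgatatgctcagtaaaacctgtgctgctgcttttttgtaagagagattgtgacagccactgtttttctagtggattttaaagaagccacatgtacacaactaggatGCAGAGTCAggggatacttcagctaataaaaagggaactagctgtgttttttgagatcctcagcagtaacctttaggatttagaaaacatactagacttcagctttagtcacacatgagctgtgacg
Ms4a4c: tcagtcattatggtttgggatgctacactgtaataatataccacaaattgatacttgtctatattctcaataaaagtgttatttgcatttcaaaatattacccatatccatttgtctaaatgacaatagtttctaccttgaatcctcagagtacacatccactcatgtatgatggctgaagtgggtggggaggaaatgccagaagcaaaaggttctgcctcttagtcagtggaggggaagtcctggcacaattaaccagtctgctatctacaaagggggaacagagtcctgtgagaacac

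The windows of Ms4a6b and Ms4a6c shared an unbroken run of 48 bases, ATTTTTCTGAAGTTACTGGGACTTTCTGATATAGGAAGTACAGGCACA, and no other pair of members' windows shared more than 9. The motifs searched on both strands were GAAANNGAA (a pair of IRF sites), TTCNNNGAA (GAS, bound by STAT factors), TGANTCA (AP-1), TGACNNNGC (antioxidant response element), TTGCNNAA (C/EBP), GAGGAAGT (ETS or PU.1) and GGGANTTTC (NF-kB). Their letters were chosen after the windows had been read, so the shares of all windows given here do not measure how unusual a match is. The IRF pair, held by 8.56% of all 32851 windows in the RefSeq table, and the NF-kB letters, held by 1.11%, matched both Ms4a6b and Ms4a6c. In both windows the NF-kB match lies inside the shared run of 48 bases, so these matches are not separate observations. Ms4a4a matched the NF-kB letters and, on the minus strand, the antioxidant response element, which 12.4% of all windows hold. The Ms4a4c window matched none of the 7 motifs, and bases at the start of its GENCODE span were not searched. Ms4a7, which was not lower in the on group as a mean, had 2 windows, and both matched the IRF pair, the second also AP-1, which 7.81% of all windows hold. Windows were found for 5 of the 6 members. A match is a description of the letters and not of a bound site.

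Of the 6 members, Ms4a4a, Ms4a6b and Ms4a6c had lower mean levels in the on group, and Ms4a4c, Ms4a6d and Ms4a7 had higher means with wide spreads. In limma with Benjamini-Hochberg adjustment over all genes, 0 of the 6 members passed an adjusted p of 0.05, where 2.07% of all tested genes passed. At an unadjusted p under 0.05 there were 3 members, against 19.7% of all tested genes. Ms4a6c was the 1 member that passed in the authors' deposited table, against 7.56% of its genes, with 2.49% passing as lower. Without acoustics-on replicate 1, 2 members passed in limma (Ms4a4a and Ms4a4c) beside 7.44% of all genes, and without replicate 2 there were 2 (Ms4a6b and Ms4a6c) beside 2.82%. The groups did not overlap for 2 members, Ms4a4a and Ms4a6c, which were lower in all 3 acoustics-on libraries than in any acoustics-off library, as were 17.7% of tested genes. The members were picked from this contrast, so these counts are a description. In bulk RNA, fewer cells with a transcript and less of it per cell cannot be told apart.

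**Figure D1:**
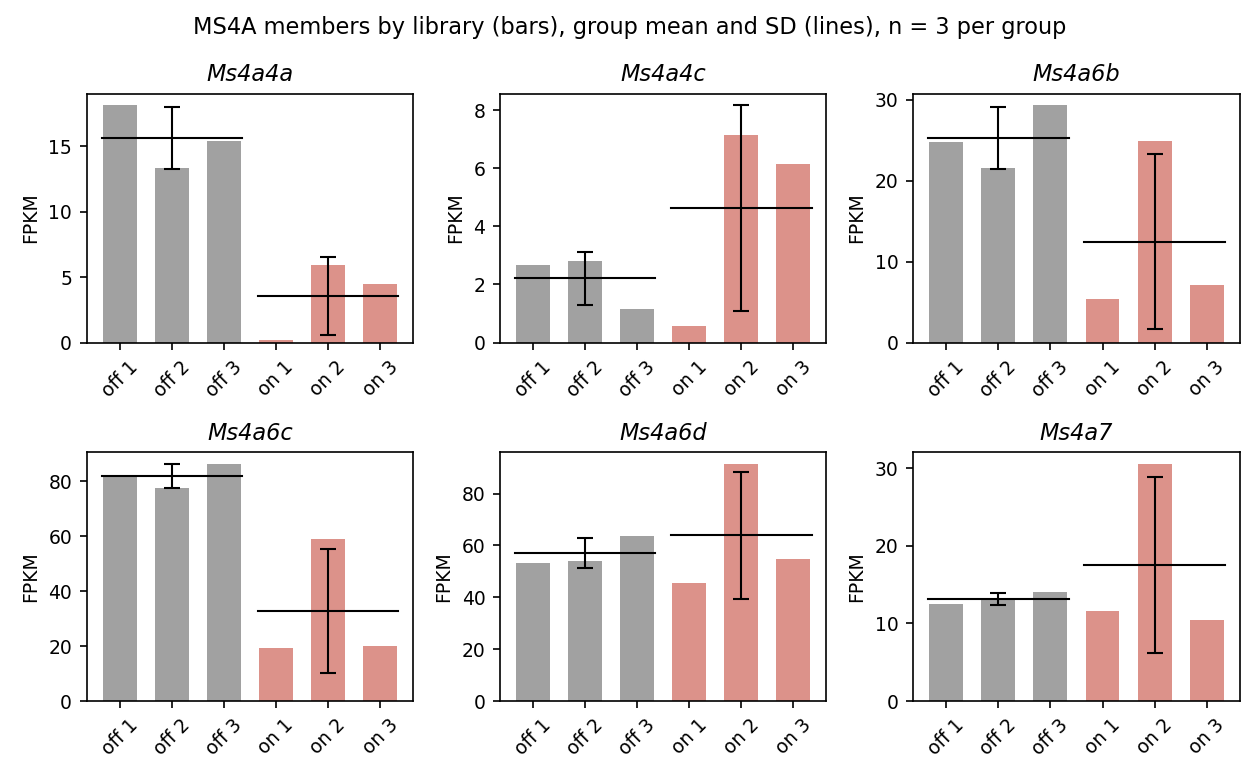
FPKM of the 6 MS4A members in each library (grey bars for the off group, red bars for the on group), with the group mean and SD (lines, n = 3). Ms4a4a and Ms4a6c are lower in all acoustics-on libraries than in any acoustics-off library, and acoustics-on replicate 2 is the highest acoustics-on library for every member.

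Ms4a4a, the dectin-1 partner, had the largest log2 difference of the 6. Its level was 18.1, 13.4 and 15.4 FPKM in acoustics-off replicates 1, 2 and 3 and 0.197, 5.96 and 4.49 FPKM in acoustics-on replicates 1, 2 and 3. All acoustics-on libraries were below all acoustics-off libraries, and replicate 1 was far below the other acoustics-on libraries. The mean went from 15.6 ± 2.39 to 3.55 ± 2.995 FPKM (SD, n = 3), a log2 difference of -2.21 (SE 0.62), where log2 differences are of log2(FPKM + 1) and understate changes of low genes. Scaled by the authors' deposited mean count of 245.2 normalised reads for this gene, replicate 1 held about 5.0 reads against about 341.9 to 463.8 in the acoustics-off libraries. The log2 difference was -1.42 without acoustics-on replicate 1, -2.69 without replicate 2 and -1.39 with library weights.

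Ms4a6c was the most abundant member in the off group. Its level was 82.0, 77.5 and 86.2 FPKM in the off group and 19.3, 58.9 and 20.1 FPKM in the on group. The groups did not overlap, and acoustics-on replicates 1 and 3 lay close together, well below replicate 2. The mean went from 81.9 ± 4.38 to 32.8 ± 22.6 FPKM, a log2 difference of -1.49 (SE 0.40), and the authors' deposited table gave -1.32 (SE 0.42). It was -1.22 without acoustics-on replicate 1, -2.0 without replicate 2 and -0.78 with library weights, which gave replicate 2 the highest weight among the on libraries. BE692007, an annotated processed transcript on the opposite strand, overlaps 12027 bases of the Ms4a6c locus and averaged 2.86 FPKM in the off group and 1.06 in the on group. The overlap is of whole gene spans, introns included, and overlap of exons was not measured. Whether counting used strand is not given in the sources used here, so how many reads these genes share is unknown.

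Ms4a6b followed its close copy, with less separation. Its level was 24.8, 21.6 and 29.3 FPKM in the off group and 5.35, 24.9 and 7.09 FPKM in the on group. Acoustics-on replicates 1 and 3 were below all acoustics-off libraries, while replicate 2 lay among them. The mean went from 25.2 ± 3.86 to 12.4 ± 10.8 FPKM, a log2 difference of -1.24 (SE 0.49). It was -0.85 without acoustics-on replicate 1, -1.86 without replicate 2 and -0.38 with library weights. The ratio of Ms4a6c to Ms4a6b was 3.28 ± 0.32 in the off group and 2.94 ± 0.63 in the on group (SD, n = 3). Reads shared between these copies leave part of both values uncertain. Of the 50-base words in their annotated transcripts, 3.44% of those of Ms4a6b and 5.85% of those of Ms4a6c also occur in another MS4A transcript.

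Ms4a4c, the neighbour of Ms4a4a, ran the other way in part of the libraries. Its level was 2.67, 2.81 and 1.17 FPKM in the off group and 0.569, 7.14 and 6.17 FPKM in the on group. Acoustics-on replicates 2 and 3 were above all acoustics-off libraries, and replicate 1 was below them all. The mean was 2.22 ± 0.91 FPKM in the off group and 4.63 ± 3.55 in the on group, a log2 difference of 0.53 (SE 0.62). It was 1.29 without acoustics-on replicate 1, 0.10 without replicate 2, 0.20 without replicate 3 and 0.27 without acoustics-off replicate 3. With library weights it was 1.31, and the authors' deposited table gave 1.07. It is the member with the fewest reads, with a mean of 86.1 normalised counts in the authors' deposited table. Ms4a4c shares 8.19% of its 50-base words with other MS4A transcripts, most of them with Ms4a4b, whose coding sequence was 91.7% identical.

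Ms4a6d, the NLRP3-linked member, and Ms4a7, the border macrophage marker, did not separate the groups. Ms4a6d was at 53.4, 53.9 and 63.8 FPKM in the off group and at 45.5, 91.5 and 54.7 FPKM in the on group. Ms4a7 was at 12.48, 12.97 and 14.02 FPKM in the off group and at 11.6, 30.5 and 10.4 FPKM in the on group. For both genes acoustics-on replicate 2 was the highest of the 6 libraries. For Ms4a6d the other acoustics-on libraries lay within or below the acoustics-off range, and for Ms4a7 both lay below it. The log2 differences were 0.10 (SE 0.25) for Ms4a6d and 0.23 (SE 0.37) for Ms4a7. They were -0.19 and -0.24 without acoustics-on replicate 2, so the sign of both turned without that library, and they were 0.31 and 0.42 without replicate 1. With library weights they were 0.50 and 0.86. Once trends with transcript length and GC content had been removed per library, the Ms4a6d difference was also -0.19.

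All 6 members were higher in acoustics-on replicate 2 than in replicates 1 and 3. Over all tested genes, 2835 of 11664 (24.3%) were highest in that library among the acoustics-on group. The excess of replicate 2 over the mean of the other acoustics-on libraries was 1.85 on the log2 scale for Ms4a6b, 1.53 for Ms4a6c and 1.44 for Ms4a4a. It was 1.398 for Ms4a7, 1.28 for Ms4a4c and 0.86 for Ms4a6d. The smallest of these, for Ms4a6d, exceeded the value of 98.6% of tested genes, and the largest, for Ms4a6b, that of 99.9%, while the median gene had 0.03. After the same removal of trends, replicate 2 was still the highest acoustics-on library for the 6 members, and their excess exceeded that of 98.9% to 99.9% of tested genes. The members share a locus and a family, so they are not independent readings of this library, and the comparison has no replicate of its own. The members had also been listed with their acoustics-on values known, so these ranks among all genes are a description and not a test.

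**Figure D2:**
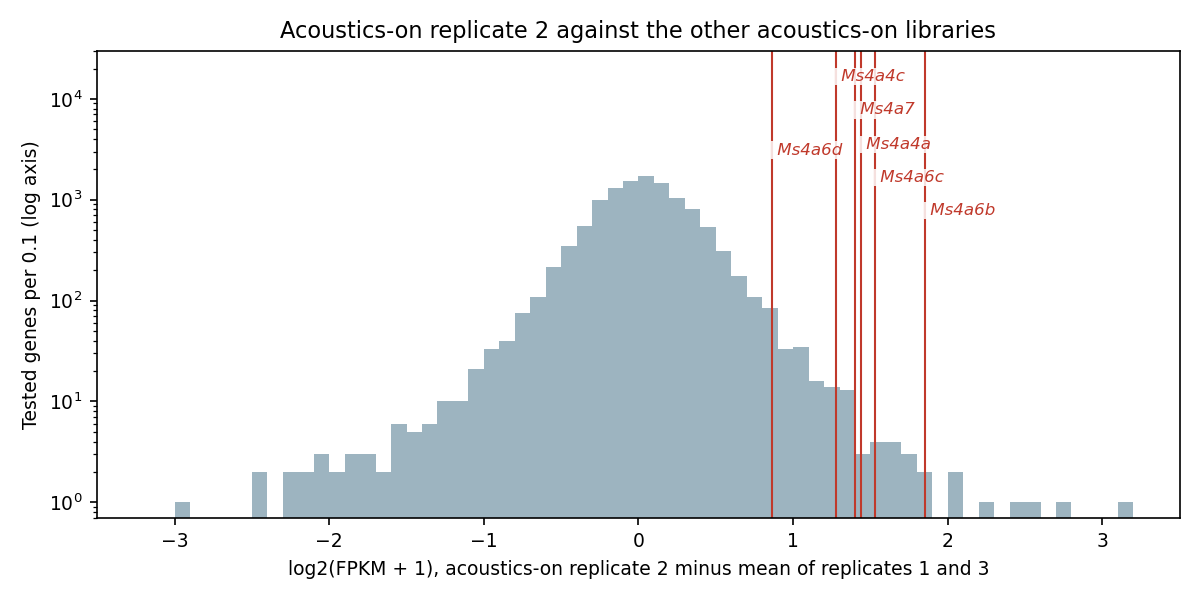
Number of tested genes (log axis) by the log2(FPKM + 1) of acoustics-on replicate 2 minus the mean of acoustics-on replicates 1 and 3. Red lines mark the 6 MS4A members, from 0.86 for Ms4a6d to 1.85 for Ms4a6b, all in the right tail. The members had been listed with their acoustics-on values known.

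**Figure D3:**
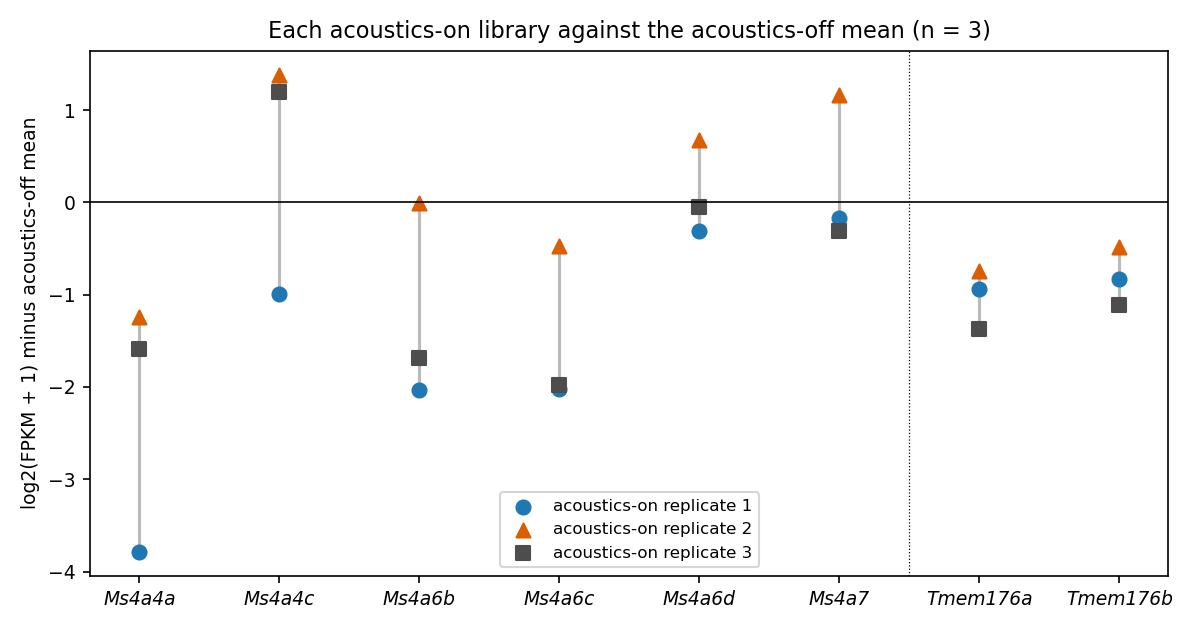
The log2(FPKM + 1) of each acoustics-on library minus the acoustics-off mean (n = 3), for the 6 MS4A members and the related Tmem176a and Tmem176b. Replicate 2 (triangles) is the top point of every gene, and replicate 1 (circles) is the lowest for 5 members.

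The order of the members' levels, which FPKM allows because it is per length, was the same in each library of a group and differed between the groups. In all 3 acoustics-off libraries the order was Ms4a6c, Ms4a6d, Ms4a6b, Ms4a4a, Ms4a7 and Ms4a4c. Ranges of neighbours in that order did not overlap, except those of Ms4a4a and Ms4a7. In all 3 acoustics-on libraries the order was Ms4a6d, Ms4a6c, Ms4a7, Ms4a6b, Ms4a4c and Ms4a4a. There the ranges of all neighbours in the order overlapped. The ratio of Ms4a6d to Ms4a6c was 0.65 to 0.74 in the acoustics-off libraries and 1.55 to 2.72 in the acoustics-on libraries.

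Summed over the 6 members, the level was 193.5, 182.1 and 209.9 FPKM in the off group and 82.5, 218.9 and 102.9 FPKM in the on group. The sum of acoustics-on replicate 2 was thus above the acoustics-off libraries, and the sums of the other acoustics-on libraries were below them. Ms4a6c made up 42.0 ± 0.79% of this sum in the off group and 23.3 ± 3.69% in the on group (SD, n = 3). Ms4a6d made up 29.2 ± 1.44% and 50.02 ± 7.19%. Ms4a7 made up 6.75 ± 0.34% and 12.7 ± 2.24%. The shares of Ms4a4a and Ms4a6b were also lower in every on library than in any off library, at 0.238% to 4.36% against 7.32% to 9.37% for Ms4a4a and at 6.49% to 11.4% against 11.9% to 13.96% for Ms4a6b. The share of Ms4a4c overlapped between the groups, as did the sums. The shares are parts of 1 sum, so each depends on the levels of the other members. In FPKM the groups overlapped for Ms4a6b, Ms4a6d and Ms4a7.

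**Figure D4:**
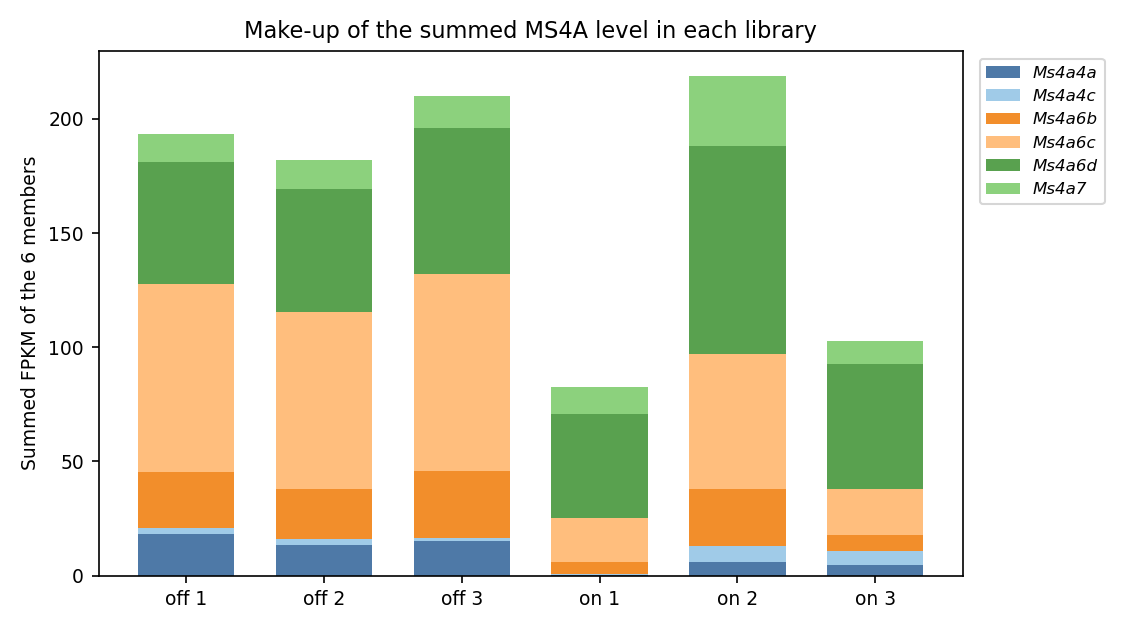
Summed FPKM of the 6 MS4A members in each library, divided by member. The acoustics-off sums lie between 182.1 and 209.9 FPKM, with Ms4a6c the largest part, while in the acoustics-on libraries Ms4a6d is the largest part.

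Among the other MS4A genes, Ms4a4b and Ms4a14 had rows in the table but stayed below 0.5 FPKM in all libraries. The related Tmem176a and Tmem176b, tetraspan proteins of macrophages and dendritic cells that lie on chromosome 6, were abundant. Tmem176a was at 433.1, 409.5 and 393.7 FPKM in the off group and at 213.9, 246.3 and 158.1 FPKM in the on group. It fell by 1.02 on the log2 scale (SE 0.19), with an adjusted p of 0.049 in limma. Tmem176b averaged 1037 ± 3.57 and 601.6 ± 131.6 FPKM, with a log2 difference of -0.81 (SE 0.19) and an adjusted p of 0.094, and its groups did not overlap. Both passed in the authors' deposited table. Tmem176a did not pass without any 1 of the acoustics-off libraries (adjusted p 0.23 to 0.26), without acoustics-on replicate 3 (adjusted p = 0.066), with a replicate block (adjusted p = 0.074), with median-of-ratios scaling (adjusted p = 0.055) or with no filter (adjusted p = 0.078), and over all alternatives its limma adjusted p ran from 0.0024 to 0.26. The spans of the 2 genes overlap by 578 bases on opposite strands. Whether reads there were assigned by strand is not given, so how many reads they share is unknown.

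Genes around the cluster were counted from the annotation, whatever their values. Of 60 protein-coding genes annotated within 1 Mb of the members, 22 of them olfactory receptor genes, 25 had rows and 19 passed the filter. In limma 0 of the 19 passed the threshold and 3 had an unadjusted p under 0.05, against 2.07% and 19.7% of all tested genes. Slc15a3 was the 1 neighbour that passed in the authors' deposited table. The median log2 difference of the neighbours was -0.05, against -0.03 over all tested genes. Slc15a3, a lysosomal peptide transporter, averaged 33.1 ± 1.96 FPKM in the off group and 52.9 ± 9.88 in the on group (log2 difference 0.65, adjusted p = 0.099). Once those trends were removed it passed, as did 5.15% of all genes, but 0 members did. Mpeg1, the gene of the macrophage pore protein perforin-2, was at 606.9, 551.3 and 568.0 FPKM and at 184.2, 490.0 and 381.3 FPKM (log2 difference -0.82, SE 0.34, adjusted p = 0.25), again highest in acoustics-on replicate 2 within its group.

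**Figure D5:**
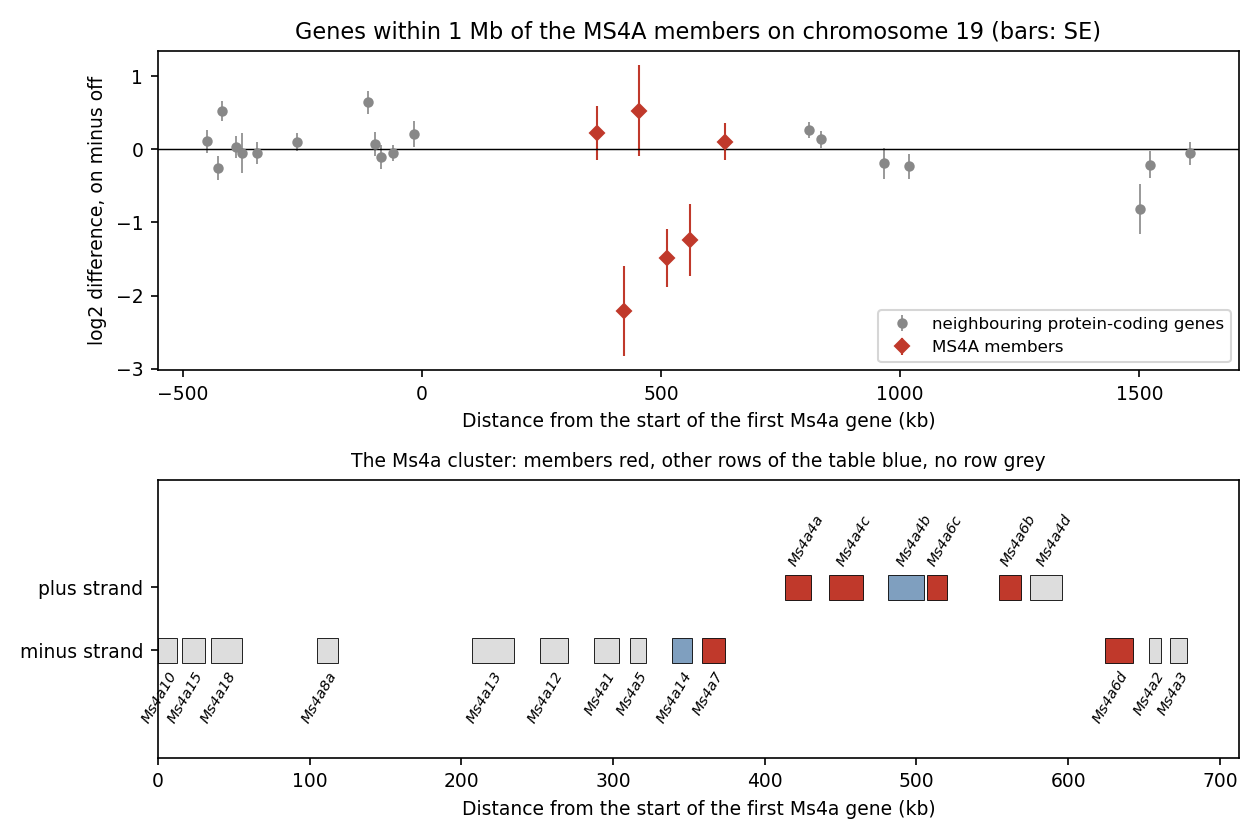
Upper panel, log2 difference of acoustics on minus acoustics off with SE against the distance from the first Ms4a gene on chromosome 19, for the MS4A members (diamonds) and 19 neighbouring genes (circles). Lower panel, the 19 Ms4a genes by strand. Ms4a4a, Ms4a6c and Ms4a6b lie at -2.21 to -1.24, and the neighbours at -0.82 to 0.65.

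Genes that are often read beside MS4A genes in macrophages were counted in lists that do not hold the members. Of 17 resident and border macrophage genes tested, 4 fell and 1 rose (limma), where 0.574% of all genes fell and 1.5% rose, with a median log2 difference of -0.92. Among those that fell were the orphan receptor gene Gpr34, the complement gene C1qa and the mannose receptor gene Mrc1, and the scavenger receptor gene Cd36 rose. C1qa was at 34.5, 25.7 and 46.4 FPKM in acoustics-off replicates 1, 2 and 3 and at 0.348, 6.83 and 0.429 FPKM in acoustics-on replicates 1, 2 and 3, a log2 difference of -3.85 (SE 0.66, adjusted p = 0.039). Its groups did not overlap, and acoustics-on replicate 2 lay nearest to the acoustics-off group. The list's median log2 level against the acoustics-off mean was -1.43, -0.52 and -1.39 in acoustics-on replicates 1, 2 and 3. Its calls depended on which library was left out. None of its genes passed without any 1 of the acoustics-off libraries or without acoustics-on replicate 3, 9 fell without acoustics-on replicate 1, and 9 fell without replicate 2. The authors' deposited table had 8 of them lower and 1 higher. With 0.1 added to the FPKM in place of 1, C1qa and Mrc1 did not pass, and with no filter only Gpr34 did. C1qa did not pass with library weights either, and Cd36 did not pass with a replicate block.

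Genes tied to TREM2, Fc receptors and dectin-1 were counted next. Of 10 genes of the TREM2 axis, 1 rose in limma and 3 had an unadjusted p under 0.05, against 1.5% and 19.7% of all tested genes. Their median log2 difference was -0.21. The riser, the inhibitory receptor gene Pilra, averaged 0.471 ± 0.092 FPKM in the off group and 3.16 ± 1.59 in the on group (log2 difference 1.43, SE 0.25, adjusted p = 0.043). It did not pass without any 1 of the acoustics-off libraries, without acoustics-on replicate 3 or with no filter. Trem2 itself averaged 636.0 ± 31.3 and 892.6 ± 287.7 FPKM (adjusted p = 0.35). Cd33, a sialic acid receptor gene, was at 78.8, 78.1 and 91.1 FPKM and at 14.5, 46.6 and 23.7 FPKM (log2 difference -1.66, SE 0.37, adjusted p = 0.084), with groups that did not overlap. Cd33 passed in the authors' deposited table, and in limma it passed with library weights, after the removal of length and GC trends, and without acoustics-on replicate 1 or 2. Of 10 Fc receptor and dectin-1 signalling genes, 0 passed in limma or in the authors' deposited table. At an unadjusted p under 0.05 in limma there were 2, against 19.7% of all tested genes. Without acoustics-on replicate 2, Fcgr3 and Clec7a passed as lower in limma, beside 2.82% of all genes. With library weights Fcgr1 passed as higher. Clec7a, the gene of dectin-1, was at 91.0, 98.8 and 97.0 FPKM and at 39.7, 102.1 and 49.0 FPKM (adjusted p = 0.28), with acoustics-on replicate 2 above the acoustics-off libraries.

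Genes that respond to IL-4, glucocorticoids and interferon were counted the same way, where 0.574% of all tested genes fell and 1.5% rose in limma. Of 7 tested genes of the response to IL-4, 2 fell in limma, Mrc1 (also in the list of resident macrophage genes) and the chemokine gene Ccl24, with a median log2 difference of -0.53. Ccl24 averaged 1.82 ± 0.29 FPKM in the off group and 0.418 ± 0.181 in the on group (adjusted p = 0.022). Of 8 glucocorticoid response genes, 1 fell, the MAP kinase phosphatase gene Dusp1, from 150.9 ± 77.6 to 26.7 ± 7.54 FPKM (adjusted p = 0.044), and the median was -0.47. The IL-4 list had 0 calls without any 1 of the acoustics-off libraries or without acoustics-on replicate 3. The glucocorticoid list had 0 without acoustics-off replicate 2 or 3, without acoustics-on replicate 3 or with no filter. Dusp1 also did not pass without acoustics-on replicate 2, where Tsc22d3 fell, or with library weights, where 2 other genes of the list fell. The authors' deposited table had 4 IL-4 genes lower (Ccl24, Il4ra, Mrc1 and Irf4) and 2 glucocorticoid genes lower (Sgk1 and Dusp1). Of 21 tested interferon response genes, 15 rose and 0 fell, with a median of 1.19. Irf7, a transcription factor gene of that response, was at 13.14, 15.70 and 13.002 FPKM and at 70.9, 59.4 and 78.7 FPKM (log2 difference 2.24, SE 0.15, adjusted p = 0.002). Without any 1 of the acoustics-off libraries 3 or 4 interferon genes passed, and without acoustics-on replicate 1, 2 or 3 the counts were 14, 9 and 6.

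Genes with the pattern most like each member were ranked by distance over the 6 libraries among 10014 genes, using the log2 levels against the acoustics-off mean and leaving the other members out. Nearest to Ms4a6c was C5ar1, the complement C5a receptor gene, at a distance of 0.25, where the median gene lay at 2.85. C5ar1 was at 172.2, 162.4 and 181.3 FPKM in the off group and at 38.5, 110.3 and 47.9 FPKM in the on group. S1pr1 and Rcbtb2 came next for Ms4a6c. For Ms4a6b the nearest were Clec4a1, Adgre5 and C5ar1, at 0.49, 0.63 and 0.67. For Ms4a4a they were the RNA-sensing receptor gene Tlr8 at 0.44, then Zfp36l1 and Abca1 at 1.011 and 1.131. Ms4a4c had no gene within 0.99, and Megf9, Tubgcp4 and Efr3b were its nearest. Angpt2, Trim16 and BC049715 were nearest to Ms4a6d, and Shq1, Angpt2 and Gca to Ms4a7. Between members the nearest pairs were Ms4a6b with Ms4a6c and Ms4a6d with Ms4a7, both at 0.57. Of the ranked genes, 1 was nearer to Ms4a6b than Ms4a6c was, and 4 were nearer to Ms4a6c than Ms4a6b was. For the other pair, 1 was nearer to Ms4a7 than Ms4a6d was, but 224 were nearer to Ms4a6d than Ms4a7 was. The median gene lay at 1.02 from Ms4a6d. Among the members, Ms4a6d lay nearer in pattern to Ms4a7 than to the Ms4a6b and Ms4a6c copies it resembles in coding sequence. After the removal of length and GC trends, C5ar1 was still first for Ms4a6c, while the nearest genes of Ms4a6d dropped to ranks 2148, 3477 and 1713.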

How the data were processed

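RNA from 3 acoustics-off and 3 acoustics-on RAW264.7 libraries was analysed. Per the labels' protocols, libraries were made after ribosomal RNA depletion, while the molecule label says polyA RNA. The submitters' processing notes list DESeq2 1.38.2, Salmon 1.4.0, STAR 2.7.11 and Trim Galore 0.6.8, and build GRCm38. The authors deposited FPKM per gene and library. The authors' deposited comparison holds a signal (the mean normalised count), log2 fold changes with SE, a test score and p-values. The files hold no raw counts, so depth per library is unknown and limma 3.58.1 (R 4.3.3; trended, robust prior) was run on log2(FPKM + 1), keeping genes that reached 0.5 FPKM in 3 or more libraries, with Benjamini-Hochberg adjustment at 0.05. Approximate reads were found by scaling each FPKM by the gene's deposited mean normalised count divided by its mean FPKM.

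The members and gene lists were chosen with earlier results of these data known. Named genes were the members, other MS4A or TMEM176 genes past the filter, up to 4 genes of each list or of the neighbours by smallest p, and the 3 genes nearest to each member. Trem2, Clec7a and Slc15a3, and others of at most 5 called in a list, were named after their values were seen. Of the resident macrophage list, 1 gene is not reported here. Coding sequences were aligned globally with Biopython 1.88. Protein identity had been planned, and coding sequence was used in its place. Alternatives covered the pseudocount, filter, scaling, prior, library weights, length and GC trends, the replicate block, each library left out and the authors' comparison.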

Additional observations from a re-analysis of the deposited data

How the results depend on the processing

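All genes past the threshold numbered 175 higher and 67 lower. The counts were 116 and 34 with no filter, 1098 and 784 with library weights, 289 and 311 with length and GC trends divided out, and 737 and 361 in the authors' deposited table. Leaving out 1 library gave 14 to 498 higher and 3 to 357 lower. The cause was not tested. Members past the threshold numbered 0, but 1 with library weights (Ms4a4a), 1 in the authors' deposited table (Ms4a6c) and 0 to 2 with 1 library left out (Ms4a4a and Ms4a4c without acoustics-on replicate 1, Ms4a6b and Ms4a6c without replicate 2). Log2 differences kept their sign in 17 of 17 alternatives for Ms4a4a, Ms4a4c, Ms4a6b and Ms4a6c, 16 for Ms4a7 and 15 for Ms4a6d, but not their size: they ran from -2.95 to -1.39 for Ms4a4a, 0.10 to 1.31 for Ms4a4c, -1.86 to -0.38 for Ms4a6b, -2.0 to -0.78 for Ms4a6c, -0.19 to 0.50 for Ms4a6d and -0.24 to 0.86 for Ms4a7.

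The labels do not say that equal numbers pair libraries, so the numbers were not taken as pairs. Deviations of same-numbered libraries had r of -0.07, -0.02 and -0.004, and those of other combinations ran from -0.12 to 0.12. With 3 libraries per group these values cannot settle whether libraries were paired. A replicate block gave 133 higher, 46 lower and 0 members. No counts are given, so the counting error of low genes such as Ms4a4c is unknown.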

Other observations

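Of 14 tetraspanin genes tested, 0 passed in limma and 5 had an unadjusted p under 0.05, against 19.7% of all tested genes. Their median log2 difference was 0.24. With library weights 7 of the 14 passed as higher, where 1882 of all 11664 genes passed. Without acoustics-on replicate 1 there were 3, beside 7.44% of all genes. Cd9 averaged 489.1 ± 19.4 FPKM in the off group and 780.7 ± 76.8 in the on group, and Cd82 averaged 50.7 ± 0.92 and 72.1 ± 3.73 FPKM (limma adjusted p = 0.081 for both), and both passed in the authors' deposited table. Of 6 genes tested around NLRP3 and VSIG4, 0 passed in limma or in the authors' deposited table, with a median of 0.08. At an unadjusted p under 0.05 in limma there were 2, against 19.7% of all tested genes. Vsig4 itself and Pycard had no row. With library weights Casp1 and Gsdmd passed as higher, and without acoustics-on replicate 1 Il1b did. S100a8, a granulocyte marker, was at 0.179, 0.181 and 0.092 FPKM in the off group and at 1.52, 6.97 and 6.62 FPKM in the on group (limma adjusted p = 0.053). S100a8 passed as higher in the authors' deposited table.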
